A study of Mus musculus with 3 samples.

Results

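The suppressor of cytokine signalling (SOCS) family was represented by 8 genes, Socs1 to Socs7 and Cish, the gene of the cytokine-inducible SH2 protein CIS. They were the rows of the count table whose symbol equals a listed name, and all 8 were found among 44788 rows. Messenger RNA was profiled in 3 libraries of T lymphocytes from the spleens of female Balb/c mice aged 6 to 8 weeks, which were isolated with beads against CD90.2, kept in medium with 2% serum and treated for 10 h with LZ-8, a protein from the Ganoderma lucidum mushroom that acts on immune cells. All libraries belonged to this 1 treated group, so the values describe treated cells and hold no comparison with untreated ones. Nothing in the labels ties the replicates to separate animals or cultures, and SDs and p-values therefore measure only how far these samples differ from each other, which may be a technical spread.

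SOCS proteins are feedback inhibitors of cytokine receptors. A cytokine activates Janus kinases (JAKs), which phosphorylate STAT transcription factors, and STAT dimers switch on several SOCS genes. Each SOCS protein carries an SH2 domain, which binds phosphotyrosine on its target, and a SOCS box, which recruits elongins B and C with a cullin to make a ubiquitin ligase. SOCS1 and SOCS3 also have a short region that blocks the JAK catalytic site. CIS and SOCS2 are close relatives, as are SOCS1 and SOCS3, SOCS4 and SOCS5, and SOCS6 and SOCS7.

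The cells were T cells by their markers. All 12 T cell markers averaged 10 CPM or more (CPM, counts relative to the scaled size of each library), among them Cd3e at 364 ± 24.2 and Cd4 at 277 ± 4.73 CPM (SD, n = 3 libraries). Of 35 measured markers of other cells (B, myeloid, NK and erythroid cells, platelets and stroma) none reached a mean of 10 CPM, the highest being Zbtb46 of the dendritic cell list at 9.90 ± 0.888 CPM, and 11 of them, such as Csf1r, Ncr1 and Pf4, had 0 counts. Their summed CPM was 0.842%, 0.882% and 0.841% of that of the T cell markers in replicates 1, 2 and 3. Fewer cells of a type and less RNA per cell cannot be told apart in bulk RNA. The libraries held 13239482, 15007652 and 15683820 counts, and replicates 1 and 3 stood furthest apart in the share of counts on the 18S ribosomal RNA row Rn18s-rs5, which was 5.83%, 2.37% and 0.992% in replicates 1, 2 and 3.

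The promoters of 3 members are shown because they hold matches to the letters of elements that STAT dimers or interferon regulatory factors bind. Each window runs from 250 bases before to 50 after the RefSeq transcript start (GRCm38.p6), read 5′ to 3′ on the strand of the gene. The Cish and Socs3 windows lie inside the gene spans annotated in GENCODE M21, which begin upstream at 107296026 (Cish) and 117970047 (Socs3). Their RefSeq starts are therefore not the outermost annotated starts of these genes. Capitals mark TTCNNNGAA, the element bound by STAT dimers, which reads the same on both strands, or GAAANNGAAA, the core of the element bound by interferon regulatory factors, searched on both strands.
Cish, chr9:107296409-107296708, plus strand: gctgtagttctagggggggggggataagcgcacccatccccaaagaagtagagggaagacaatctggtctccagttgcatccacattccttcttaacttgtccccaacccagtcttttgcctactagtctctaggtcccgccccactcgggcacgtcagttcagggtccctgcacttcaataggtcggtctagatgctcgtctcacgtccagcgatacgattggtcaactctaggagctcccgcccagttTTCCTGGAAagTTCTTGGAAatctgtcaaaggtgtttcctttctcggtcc
Socs3, chr11:117969317-117969616, minus strand: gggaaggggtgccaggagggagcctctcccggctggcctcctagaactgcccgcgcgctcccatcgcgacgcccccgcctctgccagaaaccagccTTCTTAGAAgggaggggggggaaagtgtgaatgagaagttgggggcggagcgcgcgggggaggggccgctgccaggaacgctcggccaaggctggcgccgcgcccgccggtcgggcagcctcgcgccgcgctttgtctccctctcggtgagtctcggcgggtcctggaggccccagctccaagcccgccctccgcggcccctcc
Socs1, chr16:10785487-10785786, minus strand: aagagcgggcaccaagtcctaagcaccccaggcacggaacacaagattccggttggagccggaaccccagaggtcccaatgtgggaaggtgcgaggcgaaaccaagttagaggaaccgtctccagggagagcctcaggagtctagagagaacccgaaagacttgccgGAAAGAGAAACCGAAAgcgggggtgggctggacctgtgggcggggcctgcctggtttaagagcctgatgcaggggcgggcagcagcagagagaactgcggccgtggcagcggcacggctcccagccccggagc
Cish held 2 STAT elements, TTCCTGGAA at bases 1 to 9 and TTCTTGGAA at bases 12 to 20 counted from the transcript start. Socs3 held 1, TTCTTAGAA, from base -154 to base -146. Socs1 held none of these, but 2 overlapping matches to the interferon regulatory factor core, which together span bases -83 to -68. The Socs4 window held neither. Of 32851 windows of 300 bases in the RefSeq table, 8.30% held at least 1 STAT element and 0.457% at least 2. The interferon regulatory factor core was in 3.44% at least once and in 0.225% at least 2 times, overlapping matches counted apart. Windows were read for 4 of the 8 members. Socs2, Socs5 and Socs7 were not matched, and Socs6 was not searched. A match is a description of the letters and not of binding.

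Cish was by far the most abundant member. It had 4351, 5624 and 6572 counts in replicates 1, 2 and 3, or 342, 371 and 407 CPM, a mean of 373 ± 32.7 CPM. It was lowest in replicate 1 and highest in replicate 3. CIS is known to act on receptors that signal through STAT5. Genes were compared on the level per kilobase of annotated exon (CPM per kb), which was 58.1 ± 5.10 for Cish, above 95.6% of 14294 coding genes with a count. On this scale Cish held 54.6%, 55.9% and 60.6% of the summed level of the 8 genes in replicates 1, 2 and 3, a mean of 57.0 ± 3.15%, and with the longest coding transcript as the length it held 70.3 ± 2.40%. The 7 Socs genes together came to 229, 245 and 233 CPM.

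**Figure D1:**
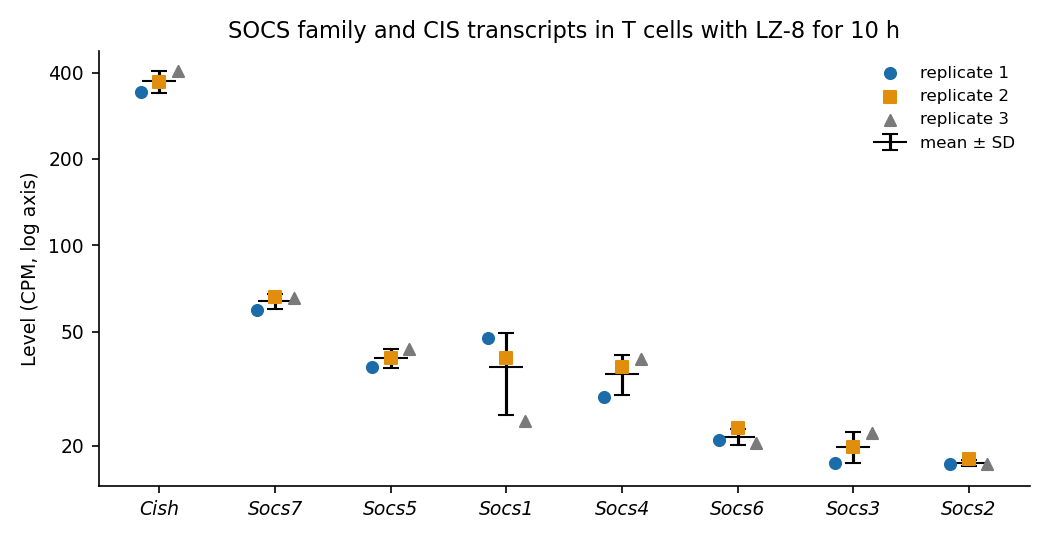
Level of each gene in CPM on a log axis, with 1 point per library and the mean ± SD of 3 libraries in black. Cish sits at 342 to 407 CPM, above every Socs gene, and Socs1 has the widest spread relative to its mean, from 24.3 to 47.6 CPM.

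Length decides how far the levels of different genes can be compared. All exons annotated for Cish (GENCODE M21, GRCm38, chromosome 9 from 107296026 to 107302784, plus strand) sum to 6419 bases, but its longest coding transcript has 2850. On that transcript Cish stood at 131 ± 11.5 CPM per kb. The gap to Socs1, the second member on both of these scales, was 4.51-fold with all exons and 10.2-fold with the longest coding transcript, and in both cases the ranges did not overlap. With the median coding transcript Cish was also first, at 136 ± 11.9 CPM per kb, and Socs2 second. Annotated antisense genes overlap Cish exons by 261 bases (Gm17040, with 1, 2 and 2 counts) and by 479 bases (Gm17041, not analysed here).

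Socs2, the nearest relative of Cish and known as a brake on growth hormone signalling, was last of the 8 with all exons as the length. It had 219, 271 and 277 counts, equal to 17.2, 17.9 and 17.2 CPM in replicates 1, 2 and 3, and varied least of all members, with a coefficient of variation of 2.30% against 6.29% from counting alone. The log2 ratio of Cish to Socs2 per kb was 4.88, 4.95 and 5.14 in the 3 libraries, a mean of 4.99 ± 0.13 or 31.8-fold. This was the widest gap of the 4 pairs of relatives. An exact sign-flip test, two-sided, gave p = 0.25 for each of the 4 pairs (adjusted p = 0.25), the smallest that 3 libraries allow. Socs2 (chromosome 10 from 95385362 to 95417180, minus strand) has 7 annotated coding transcripts, the longest of 2222 bases, and all its annotated exons sum to 9531 bases. On the longest coding transcript the ratio was 4.06 ± 0.13, and on the median transcript 2.89 ± 0.13.

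Socs1 and Socs3, the pair that inhibits JAKs directly, moved in opposite directions between libraries. Socs1, which restrains interferon gamma and common gamma chain cytokines, had 606, 615 and 392 counts, or 47.6, 40.6 and 24.3 CPM in replicates 1, 2 and 3, a mean of 37.5 ± 12.0 CPM. Replicate 3 stood below both others although it was the deepest library. Socs3, the main brake on receptors that use gp130, such as the interleukin-6 receptor, had 221, 300 and 359 counts, or 17.4, 19.8 and 22.2 CPM, a mean of 19.8 ± 2.44 CPM. Its levels were lowest in replicate 1 and highest in replicate 3, the reverse of Socs1. Per kb the log2 ratio of Socs1 to Socs3 was 1.45, 1.03 and 0.12, a mean of 0.86 ± 0.68. Without replicate 3 it was 1.24 and without replicate 1 it was 0.57, and on the longest coding transcripts it was below 0 in replicate 3, at -0.06. The coding sequence of both genes lies in 1 exon, and their annotated exons sum to similar lengths, 2908 bases for Socs1 (chromosome 16 from 10782240 to 10785536, minus strand) and 2891 for Socs3 (chromosome 11 from 117966079 to 117970047, minus strand).

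Socs4 and Socs5, which are known for effects on the epidermal growth factor receptor and, for SOCS5, the interleukin-4 receptor, were close to each other. Socs4 had 375, 570 and 648 counts, or 29.5, 37.6 and 40.1 CPM in replicates 1, 2 and 3. Socs5 had 478, 611 and 702 counts, or 37.5, 40.3 and 43.5 CPM. Both were lowest in replicate 1 and highest in replicate 3. The log2 ratio of Socs4 to Socs5 per kb was -0.45, -0.20 and -0.22, a mean of -0.29 ± 0.14, and on the longest coding transcripts it was -0.75 ± 0.14. The coding sequence of each lies in 1 exon. Socs4 lies on chromosome 14 from 47276931 to 47296102, plus strand, and its start is 73 bases from that of Wdhd1 on the opposite strand, without shared exon sequence. Socs5 lies on chromosome 17 from 87107679 to 87137839, plus strand.

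Socs7, which binds the adaptor NCK and insulin receptor substrates, was lowest in replicate 1. It had 755, 1004 and 1057 counts, or 59.3, 66.2 and 65.5 CPM in replicates 1, 2 and 3. Its coding sequence is spread over 9 exons (chromosome 11 from 97362551 to 97398542, plus strand), whereas the other 7 members have 1 to 3 coding exons. Socs6, its relative, known as a partner of LCK and KIT, had 266, 350 and 330 counts, or 20.9, 23.1 and 20.4 CPM. Socs6 was highest in replicate 2 and differed little between the other libraries. Per kb the log2 ratio of Socs6 to Socs7 was -2.21 ± 0.10 with all exons and -1.35 ± 0.10 with the longest coding transcripts, but 0.31 ± 0.10 with the median coding transcript. Which of these 2 was higher per length is therefore set by the transcript assumed, since Socs6 has 6 annotated coding transcripts (chromosome 18 from 88665224 to 88927481, minus strand) and Socs7 has 1.

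Ordered per kb of all annotated exons, Cish (58.1) was followed by Socs1 (12.9), Socs7 (8.76), Socs3 (6.85), Socs5 (6.30), Socs4 (5.20), Socs6 (1.89) and Socs2 (1.83). Neighbouring ranges overlapped for Socs1 and Socs7, for Socs3 and Socs5, and for Socs6 and Socs2. They did not overlap for the other 4 steps. With the longest coding transcript the order was Cish, Socs1, Socs7, Socs5, Socs2, Socs3, Socs4 and Socs6, and the Spearman correlation of the 2 orders was 0.81 over 8 genes. With the median coding transcript it was 0.05 against the first order. The first place of Cish was common to all 3 lengths, and the places of the Socs genes were not.

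**Figure D2:**
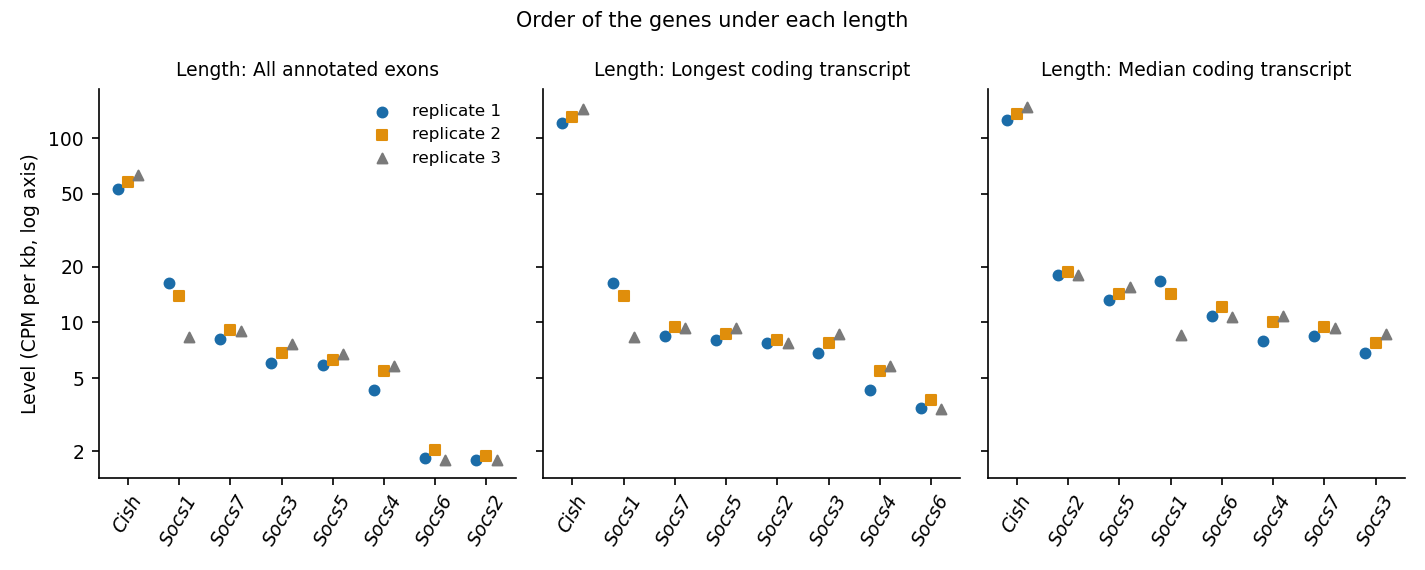
Level of each gene per kilobase on a log axis under 3 assumptions on transcript length, with 1 point per library and genes in order of their mean. Cish is first in each panel, and Socs2 moves from the last place with all exons (1.83 CPM per kb) to the second with the median coding transcript (18.4 CPM per kb).

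The 8 genes had a median of 6.58 CPM per kb, beside 6.50 for 14257 tested genes with a length. All 8 reached a mean of 10 CPM, as did 59.8% of 15392 tested genes. Among 123 genes of the lists of the same pathway, the gene nearest in level over the 3 libraries (Euclidean distance in log2 of CPM per kb plus 0.1) was Il27ra for Cish, at a distance of 0.09. It was Il6ra for Socs3 (0.14), Asb13 for Socs5 (0.14), Il10rb for Socs7 (0.16), Asb2 for Socs4 (0.27) and Asb1 for both Socs2 (0.12) and Socs6 (0.21). Socs1 had no such close neighbour, with Rab40c nearest at 0.57. These distances hold for all annotated exons as the length and were not computed with other lengths. On the longest coding transcripts Cish (131) and Il27ra (73.9 CPM per kb) were apart, as were Socs2 (7.84) and Asb1 (2.02). Socs3 (7.76) and Il6ra (7.19) stayed close, as did Socs5 (8.70) and Asb13 (7.97).

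Between libraries, 4 of 8 members differed by more than counting noise. The test was a chi-square test of the 3 counts against the scaled library sizes with Benjamini-Hochberg adjustment, and it compares libraries, not conditions. It called 42.8% of the 15392 tested genes, so the share among the members is near the background. That background was not matched for level. The median was 36.6 CPM for the members and 18.5 CPM for the tested genes. Called were Socs1 (adjusted p = 1.87e-24), Cish (2.15e-17), Socs4 (3.55e-05) and Socs3 (0.0351). Socs5 (0.0914), Socs7 (0.0975), Socs6 (0.355) and Socs2 (0.909) did not pass. Cish, Socs3 and Socs4 were highest in replicate 3, and Socs1 in replicate 1. Of all tested genes 17.9% were called and highest in replicate 1, 5.76% in replicate 2 and 19.1% in replicate 3. Without replicate 1 Socs3 (adjusted p = 0.299) and Socs4 (0.456) no longer passed, and without replicate 3 Socs3 did not (0.314), while Socs5 passed without replicate 2 (0.0299).

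Socs1 had the largest spread. Its highest library was 1.96-fold above its lowest, and 13.8% of tested genes were both called and apart by at least 1.5-fold. Its coefficient of variation was 31.9%, against 4.41% from counting alone and a median of 8.67% over the 9204 genes that averaged 10 CPM or more. The next member was Socs4 at 15.6%, and Cish was at 8.76%. The adjusted p of Socs1 was 4.25e-14 without replicate 1, 1.38e-24 without replicate 2 and 0.0266 without replicate 3. The share of the 18S row was likewise highest in replicate 1 (5.83%) and lowest in replicate 3 (0.992%), and its part in the result was not tested. Of the lists of other cells, summed markers were likewise highest in replicate 1 and lowest in replicate 3 for neutrophils (1.02, 0.264 and 0.0619 CPM in replicates 1, 2 and 3), stroma (0.864, 0.132 and 0 CPM), erythroid cells (2.91, 2.57 and 1.61 CPM), platelets (0.0786, 0.0659 and 0 CPM) and B cells (11.8, 11.3 and 11.1 CPM), where Cd79b was called. They were highest in replicate 3 for macrophages (5.50, 5.87 and 6.07 CPM) and NK cells (0.786, 0.791 and 0.991 CPM), and lowest in replicate 1 for dendritic cells (10.1, 11.5 and 11.5 CPM). Several of these sums rest on very few counts. The platelet sum was 1, 1 and 0 counts of Gp1ba, where 3 counts equal 0.186 to 0.236 CPM. No neutrophil marker exceeded 6 counts in any library, and no stroma marker exceeded 7. The order of such sums over the libraries is therefore uncertain, and the part of these markers in the result was not tested. Libraries also followed a trend with exon length and GC content. For Socs1 the log2 ratio of replicate 1 to replicate 3 was 0.97 ± 0.09 (counting error) and 0.85 with that trend removed. For Cish it was -0.25 ± 0.03 and -0.24, and for Socs3 it was -0.36 ± 0.12 and -0.47. For Socs4, the member with the lowest GC content (38.5%), it went from -0.45 ± 0.09 to -0.13, and the call was lost (adjusted p = 0.461). Socs6 went from 0.03 ± 0.12 to 0.34 and passed (0.0271).

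**Figure D3:**
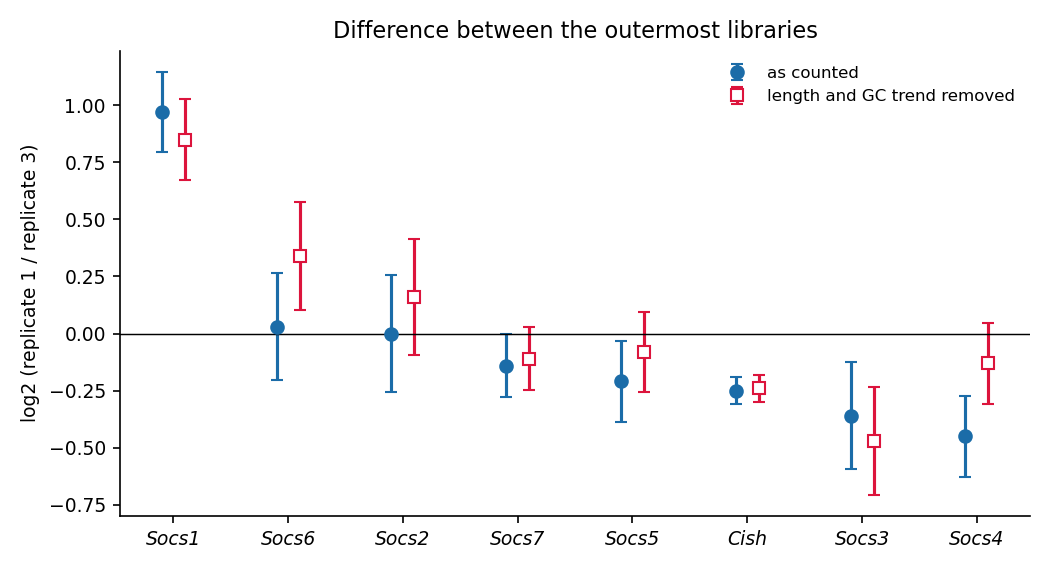
log2 ratio of replicate 1 to replicate 3 for each gene, as counted (filled circles) and with the library trend with exon length and GC content removed (open squares), with bars for the 95% counting interval. Socs1 stays far above 0 on both scales (0.97 and 0.85), while Socs4 moves from -0.45 to -0.13.

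A further sequence is shown because Socs1 is a known target of the microRNA miR-155, whose gene had a row of its own. Capitals mark the seed (bases 2 to 8) of the mature microRNA from RefSeq (GRCm38.p6, chr16:84714143-84714165, plus strand) and its match in the 3′ UTR of the longest coding Socs1 transcript of GENCODE M21.
miR-155-5p: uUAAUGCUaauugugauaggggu
Socs1 site: ctgccgctgtgccgcAGCATTAa
The match starts at base 20 after the stop codon and is the only match to AGCATTA in that 3′ UTR of 1993 bases. Among 5287 3′ UTRs at least as long, 11.1% held this match in their first 1993 bases. None was found in the 3′ UTRs of Cish, Socs2, Socs3, Socs4, Socs5 and Socs7, and that of Socs6 was not searched. The Mir155 row had 298, 411 and 611 counts, or 23.4, 27.1 and 37.8 CPM in replicates 1, 2 and 3. It was highest in replicate 3, where Socs1 was lowest, and 19.1% of all tested genes were called and highest in that library. Whether the reads of this row came from the hairpin or from its longer host transcript is not known here, mature microRNA was not measured, and its part in the level of Socs1 was not tested.

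The kinases and transcription factors upstream of the family were abundant. All 4 JAKs averaged 10 CPM or more, with Jak2 at 89.6 ± 7.82 and Jak1, which serves common gamma chain and interferon receptors, at 60.9 ± 3.16 CPM per kb. All 7 STATs did too, led by Stat6, the transducer of interleukin-4, at 102 ± 2.39 and Stat5a at 96.5 ± 1.80 CPM per kb. The chi-square test called 5 of these 11 genes, near the 42.8% of all tested genes, with 4 highest in replicate 3 and 1 in replicate 1.

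The receptors ranged from abundant to undetected. Of 27 cytokine receptors, 18 averaged 10 CPM or more, while 7 stayed below 1 CPM throughout. Il2rg, the common gamma chain, was at 204 ± 5.14 and Il2ra, the inducible interleukin-2 receptor chain, at 145 ± 12.9 CPM per kb. Ghr and Prlr, receptors on which SOCS2 and CIS are known to act in other tissues, were among the 7. They had no more than 3 counts in any library, where 3 counts equal 0.186 to 0.236 CPM. Of 21 cytokines, 3 reached a mean of 10 CPM and 10 stayed below 1 CPM throughout. Il2 at 34.7 ± 2.65 and Ifng at 32.6 ± 4.41 CPM per kb led the cytokines. At a limit of 1 CPM per kb, 10 of the 21 cytokines and 18 of the 27 receptors were counted as detected. The difference between these shares was not tested. Of the 20 receptors tested, 12 were called between libraries, 10 of them highest in replicate 3. Of the 12 cytokines tested, 3 were called, all highest in replicate 1. Beside this, 42.8% of all tested genes were called. For replicate 3, 19.1% of all tested genes were called and highest there, and for replicate 1 it was 17.9%. Counted among called genes only, 2945 of 6589 were highest in replicate 3 and 2758 in replicate 1.

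Transcripts of the listed SOCS box machinery were all detected, at a limit of 10 CPM that 59.8% of tested genes reached. Protein was not measured. All 10 ligase partners averaged 10 CPM or more, with Tceb2 (elongin B) at 92.8 ± 15.7 and the cullin modifier Nedd8 at 57.1 ± 2.69 CPM per kb. The cullin of SOCS ligases, Cul5, was at 7.98 ± 0.715 CPM per kb, close to the level of Socs7 and named after its values were seen. The chi-square test called 6 of the 10, with 3 highest in replicate 1 and 3 in replicate 3, beside 42.8% of all tested genes. Of 15 other SOCS box proteins, 11 reached 10 CPM, led by Wsb1 at 22.6 ± 2.90 and Asb6 at 17.0 ± 1.81 CPM per kb. Of the 13 tested, 4 were called. The median of the 15, 4.90 CPM per kb, was near the median of 6.58 for the SOCS family and CIS.

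Other brakes on the same pathway were all detected. All 13 averaged 10 CPM or more, with a median of 19.9 CPM per kb. Ptpn6, which encodes the phosphatase SHP-1, was at 123 ± 1.57 and Ptprc, which encodes CD45, at 100 ± 5.98 CPM per kb. Of these 13, 8 were called (42.8% of all tested genes were), with 1 highest in replicate 1, 2 in replicate 2 and 5 in replicate 3. Among reported binding partners of single SOCS proteins 8 of 10 reached 10 CPM, led by the kinase gene Lck at 175 ± 8.98 and Plcg1, a reported target of CIS, at 20.5 ± 1.35 CPM per kb. Egfr had 0 counts in all 3 libraries, where 3 counts would equal 0.186 to 0.236 CPM. Of the 8 partners tested, 3 were called between libraries, beside 42.8% of all tested genes.

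Known STAT5 target genes, the class to which Cish belongs, were nearly all detected. Of 9 such genes 8 reached 10 CPM, with a median of 89.7 CPM per kb. Myc was at 234 ± 8.77 and Il2ra at 145 ± 12.9 CPM per kb, both above Cish at 58.1 ± 5.10. These were named as the 2 highest of the list. Pim1, Ccnd2 and Pim2 were also above Cish. Bcl2l1 (50.5), Bcl2 (14.5), Ccnd3 (5.84) and Osm (3.88 CPM per kb) were below it. On the longest coding transcripts Myc was at 272, Il2ra at 188 and Cish at 131 CPM per kb. Pim2, at 123 CPM per kb, was then below Cish. The chi-square test called 7 of the 9, with 2 highest in replicate 1, 3 in replicate 2 and 2 in replicate 3. It called 42.8% of all tested genes.

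**Figure D4:**
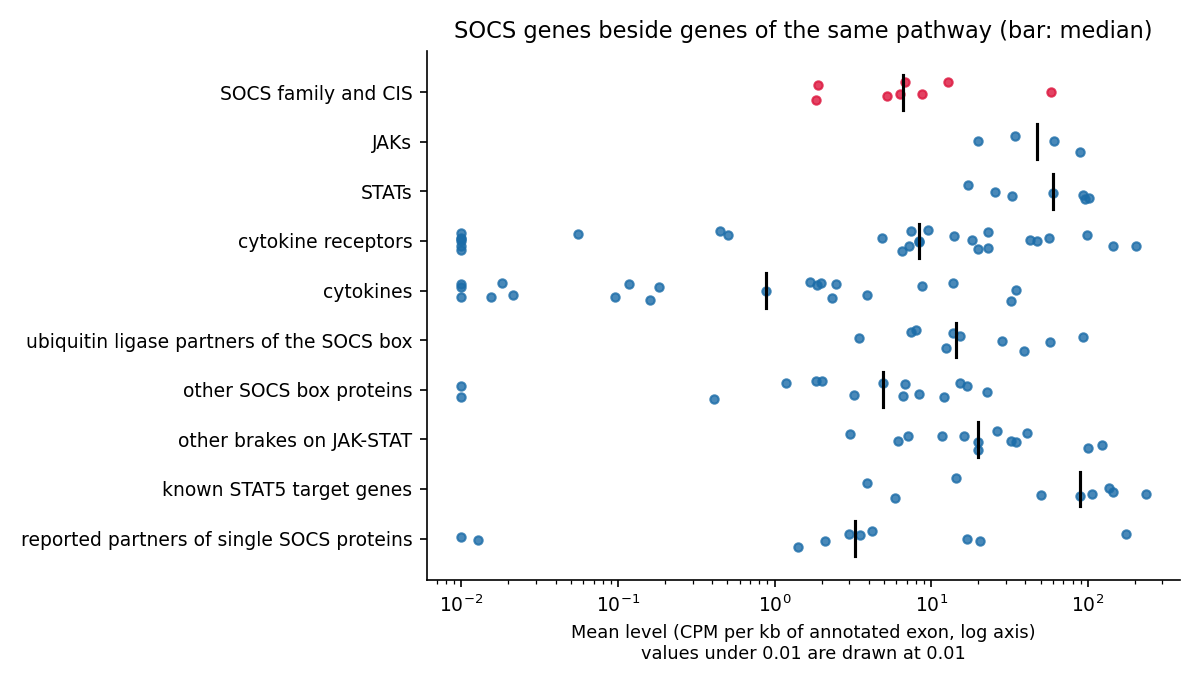
Mean level of each gene in CPM per kilobase of annotated exon on a log axis, 1 point per gene, for the 8 SOCS family genes (red) and 9 lists of the pathway (blue), with list medians as black bars. The SOCS genes have a median of 6.58, below the STATs (59.8) and the STAT5 targets (89.7), and Cish (58.1) is the member nearest to these medians. That Cish is below both medians holds for all annotated exons only. On the longest coding transcripts, which are not drawn, Cish (131) was above the middle gene of each list, Stat5b (63.6) and Pim2 (123).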

How the data were processed

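The values are raw counts by gene symbol in 1 table that the authors deposited, with 1 column per library. Reads were placed on mm10, per the submitters' processing notes. Aligner, counter, annotation, strand setting and filters: not given in the sources used here. Overlapping and antisense genes are therefore uncertain. The members and gene lists were chosen with earlier results of these data known.

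Counts were scaled with edgeR 4.0.16 in R 4.3.3 (TMM factors 0.962, 1.01 and 1.03) and are given as CPM. Exon lengths, GC content and coordinates came from GENCODE M21 (GRCm38), which matched 32204 of 44788 symbols, 1207 of them through older names. Library differences were tested by chi-square (scipy 1.17.1) on raw counts for genes with an expected count of at least 5 in each library, at an adjusted p of 0.05. The test was also run on counts simulated with counting noise only, over 15398 genes. It recovered 46.0%, 62.0%, 82.0% and 100% of the genes given changes of 1.25-, 1.5-, 2- and 4-fold (50 per size), with 6.45% false calls. The real libraries varied beyond counting noise (edgeR coefficient of variation 0.153 over 13676 genes), which the simulation left out. These shares therefore do not describe the calls made here. The length and GC trend was fitted with splines of 6 degrees of freedom on 8993 coding genes of at least 5 CPM. Within the lists, named genes were the 2 highest per kb and the gene nearest to each member. Ghr, Prlr, Egfr, Cul5, Zbtb46, Cd79b and the other markers named were chosen after their values were seen. Of the marker lists, Adgre1 was not matched. Some genes and 1 list are not reported here. Intervals cover counting error only.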

Additional observations from a re-analysis of the deposited data

How the results depend on the processing

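No paired analysis was possible because there was 1 group. Levels, pair ratios and calls were recomputed with DESeq2 1.42.0 size factors, no scaling factor, library totals without 26 ribosomal RNA rows, the length and GC trend removed, other expected counts and thresholds, a G test, other transcript lengths, and each library left out. The ratio of Socs6 to Socs7 reversed, to 0.31, with the median coding transcript as length. The other pair ratios kept their sign in every setting run. Socs2 was at 18.0 CPM without ribosomal RNA rows and at 17.1 to 17.9 CPM with 1 library left out. Of these, the value without ribosomal RNA rows and that without replicate 1 (17.9) lay more than 1 SD from the main mean. The number of genes that differed between libraries was 3555 to 6403 with 1 library left out, and fewer libraries were then tested. The number of members that differed was 2 to 5 with 1 library left out. Without a scaling factor 6 members differed, since Socs5 (adjusted p = 0.00401, chi-square test) and Socs7 (0.00191) also passed. With TMM scaling and a threshold of 0.01, Socs3 (0.0351) did not pass. Calls for Cish and Socs1 held in each of these settings. At 1 CPM per kb as the limit of detection, 10 in place of 3 cytokines were detected.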
